A study of Mus musculus with 12 samples.

Results

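The western diet was compared with chow in pancreatic islets of wild-type (WT) mice, with 3 Illumina beadchip arrays in each group. The genes described are those with a detection p-value below 0.01 on all 3 arrays of the WT chow group or of the WT western diet group, which were 8483 of the 8869 genes tested in the series. All mice were males of the strain labelled C57Bl/6Hsd, 10 months old, with islets taken after perfusing the pancreas with collagenase. The western diet ran for 6 months, from an age of 4 months, and its composition was not found in the labels or design text. Mice of genotype SHPKO, labelled as lacking SHP, a nuclear receptor that represses transcription, were kept on the same diets, and their 2 groups of 3 arrays serve here for a test of whether a change differed between genotypes. Each group's RNA was a pool from 5 to 9 mice, profiled in triplicate, per the series design text. Whether triplicates drew on a single pool is not spelled out there, so the p-values measure the spread between arrays and may leave out the spread between mice.

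Islets are clusters of endocrine cells in the pancreas, in which beta cells secrete insulin, alpha cells glucagon, delta cells somatostatin and PP cells pancreatic polypeptide. A western diet raises the demand for insulin, and beta cells meet it by secreting more and, in mice, by dividing, while the load of proinsulin folding falls on their endoplasmic reticulum. Islets separated from the pancreas with collagenase also carry exocrine, vascular, blood and immune cells.

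The labelled tissue matched its defining transcripts, since the insulin gene Ins2 averaged 14.53 and 14.56, glucagon (Gcg) 14.82 and 14.72, and somatostatin (Sst) 14.22 and 14.20 on chow and western diet in this order (normalized log2 intensity). Signals may be compressed at this brightness, which was not tested. The 6 arrays had 13821 to 15209 detected probes each. Correlations between arrays over all genes tested were 0.984 to 0.993 within the chow group, 0.987 to 0.993 within the western diet group and 0.976 to 0.987 between them.

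The western diet changed 233 of the 8483 genes in WT islets, 108 upward and 125 downward, at a Benjamini-Hochberg adjusted p below 0.05 in limma and a change of at least 1.5-fold. The called genes were thus 2.75% of the genes, with 1.27% called higher and 1.47% called lower. At a minimum of 2-fold, 25 rose and 34 fell. The 3 arrays of each diet did not overlap for any called gene, but over all genes the share without overlap was 25.7% (2177 genes). The median change over all 8483 genes was 0.017 on the log2 scale. When arrays were scaled to a common median in place of quantile normalization, 136 of all genes tested rose and 94 fell, against 110 and 131 in the main setting, so that the balance of directions rests on the scaling. Without background correction 86 genes passed in place of 241, as dim genes then change by less. A gene can enter through 1 group only, and that entry favours a higher value in that group, so the direction of such calls is not a result. Of the 204 genes detected in full only on chow, 27 passed, all lower, and of the 336 detected in full only on western diet, 37 passed, all higher. Among the 7943 genes detected on all 6 arrays, 71 rose and 98 fell.

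**Figure D1:**
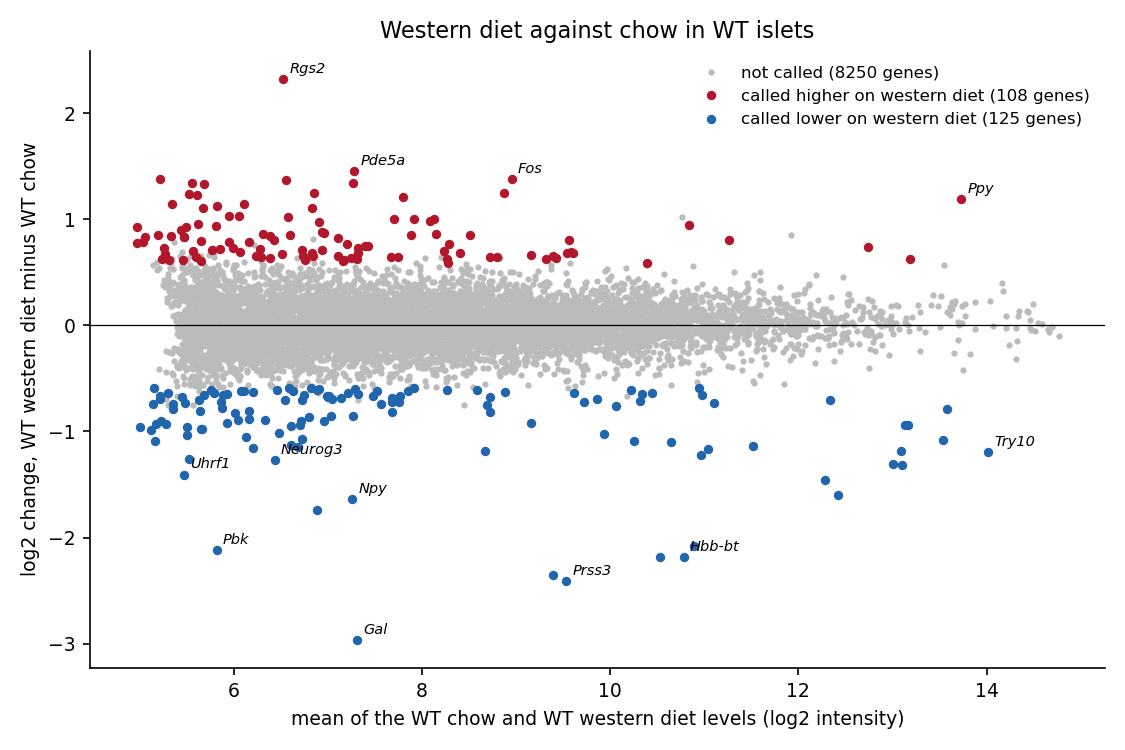
Log2 change with western diet in WT islets (y axis) against the mean of the WT chow and WT western diet levels (x axis, normalized log2 intensity) for 8483 genes, with called genes in red (108 higher) and blue (125 lower). Gal shows the largest fall and Rgs2 the largest rise, and the called genes are spread over dim and bright probes.

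The neuropeptide galanin and neuropeptide Y fell, whereas pancreatic polypeptide and ghrelin rose. Of the list of islet hormones and neuropeptides, 12 of 21 genes on the array were detected, with 2 rises, 2 falls and 8 genes short of the threshold. Gal, a peptide of sympathetic nerves and endocrine cells that inhibits insulin release, read 8.74, 8.79 and 8.83 on the 3 chow arrays and 5.90, 5.85 and 5.72 on the 3 western diet arrays (log2 intensity). All western diet arrays lay far under all chow arrays, and the change was -2.96 ± 0.10 (log2 ± SE, adjusted p = 5.8e-09). Npy, another sympathetic and islet peptide, read 8.18, 8.06 and 8.0 on chow and 6.79, 6.27 and 6.26 on western diet, a change of -1.64 ± 0.21 (adjusted p = 0.00058). In a bulk sample, fewer cells of a type and less RNA per cell cannot be told apart. Th, tyrosine hydroxylase of catecholamine neurons and some endocrine cells, also fell, from 8.09 ± 0.11 to 7.27 ± 0.15 (SD, n = 3 arrays), by 0.82 on the log2 scale (adjusted p = 0.0013). It was the 1 of 5 detected neural markers that passed, and the summed signal of these markers was 1176 to 1293 on chow and 973 to 1048 on western diet. The part of these cells in the falls of Gal and Npy was not tested.

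Ppy, the hormone of PP cells, read 13.12, 12.98 and 13.31 on chow and 14.26, 14.30 and 14.41 on western diet. The groups did not overlap, and the change of 1.19 ± 0.10 (adjusted p = 1.9e-05) may be understated, since the western diet level lies near those of insulin and glucagon. Ghrelin (Ghrl), the hormone of epsilon cells, was dim, at 5.09, 5.58 and 5.64 on chow, where 2 of 3 arrays detected it, and 6.66, 6.34 and 6.40 on western diet. It rose by 1.03 ± 0.19 (adjusted p = 0.0071), but its uncorrected intensities gave 0.51, below the fold required, while its second probe changed by 0.56 and did not pass. Peptide YY (Pyy), made by alpha and PP cells, changed by 0.33 ± 0.08 (adjusted p = 0.026), below the minimum fold. The remaining hormones did not pass, with 0.02 ± 0.08 for Ins2, -0.10 ± 0.12 for Gcg, -0.02 ± 0.09 for Sst and 0.40 ± 0.23 for the beta cell peptide Iapp. Vip, a neuropeptide that stimulates insulin release, changed by 0.07 ± 0.13. Outside the list and chosen after its values were seen, Pdyn, the precursor of dynorphin opioid peptides, rose from 12.37 ± 0.09 to 13.11 ± 0.06 (SD, n = 3), by 0.74 ± 0.08 (adjusted p = 0.00019), and its second probe changed by 0.63 and did not pass.

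**Figure D2:**
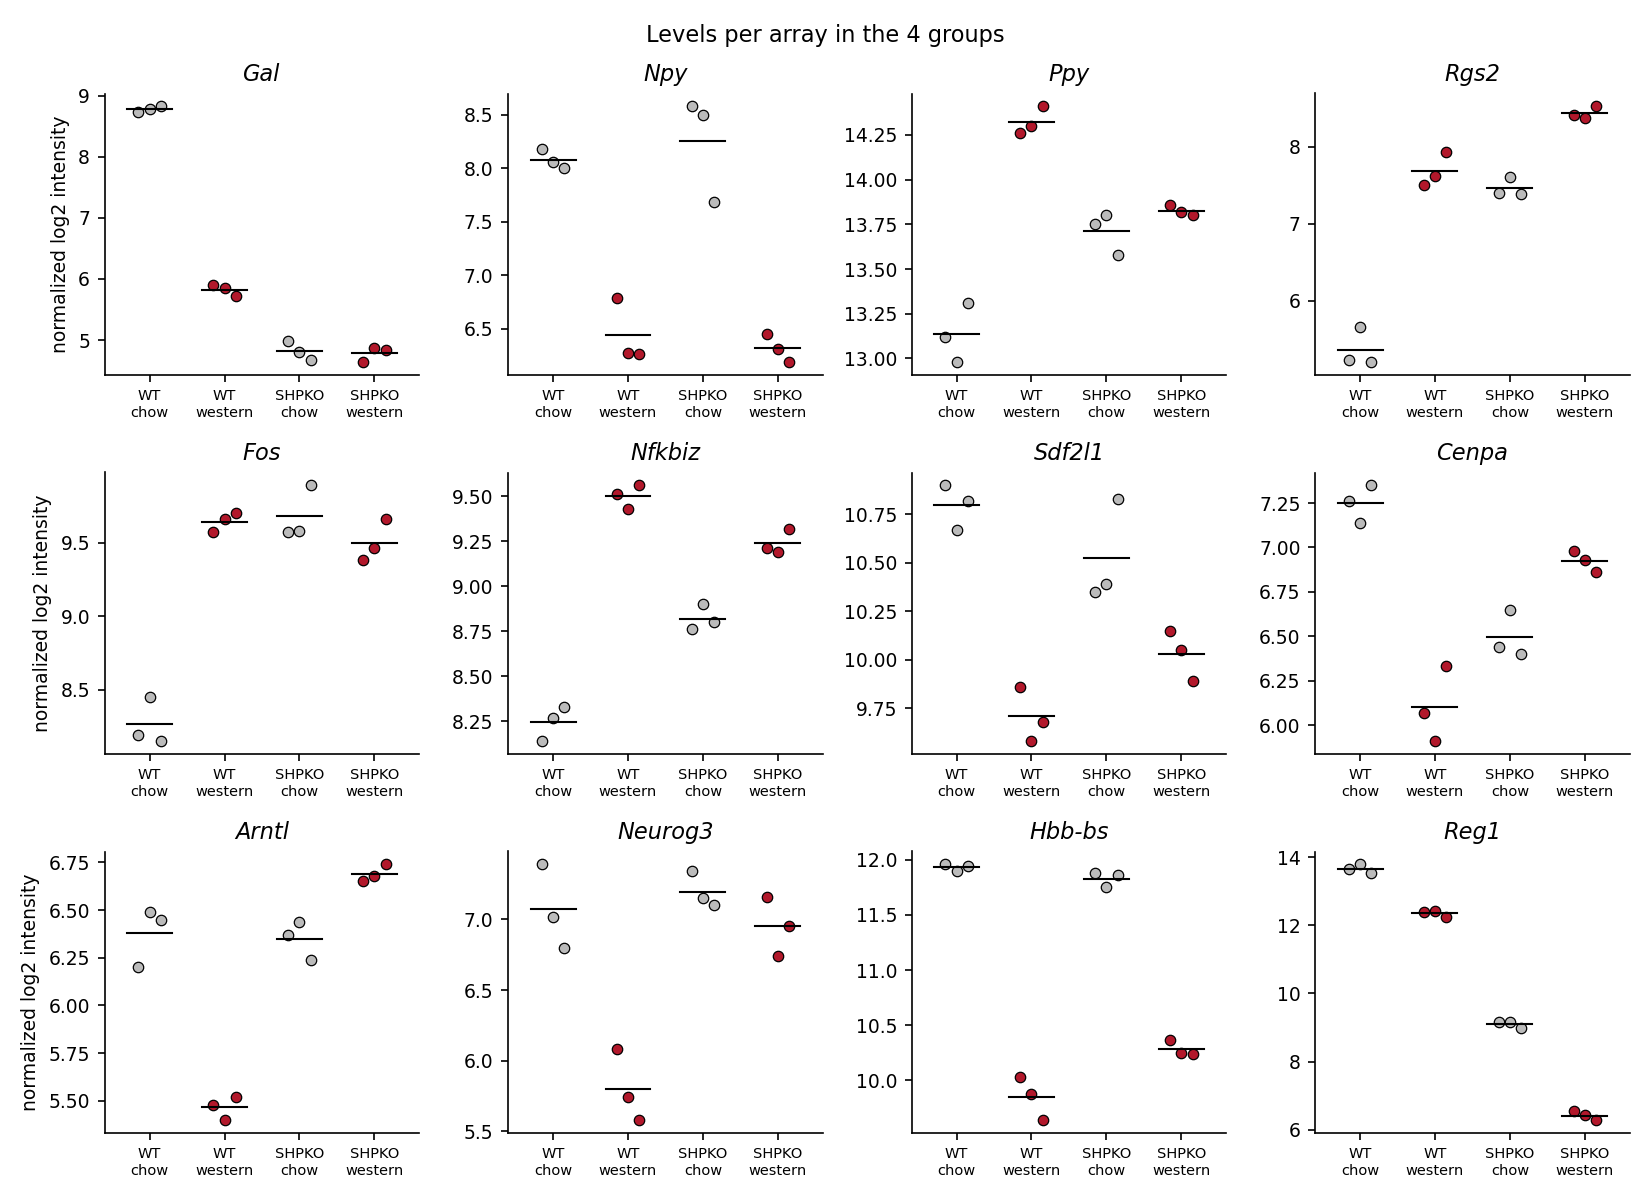
Normalized log2 intensity of 12 genes on each array (points) with the group mean (line) for WT and SHPKO islets on chow (grey) and western diet (red), on y axes that do not start at 0. Gal, Npy, Sdf2l1, Cenpa, Arntl, Neurog3, Hbb-bs and Reg1 were lower, and Ppy, Rgs2, Fos and Nfkbiz higher, on all 3 WT western diet arrays than on all 3 WT chow arrays.

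Genes of beta cell identity and glucose sensing mostly stayed within the threshold. Of 25 such genes on the array 22 were detected, with a median change of 0.02, and 1 passed. Gpr119, a receptor for fatty acid amides that raises cAMP in beta cells, read 6.37, 6.40 and 6.50 on chow and 5.53, 5.27 and 5.97 on western diet, where 2 of 3 arrays detected it. The fall was -0.83 ± 0.14 (adjusted p = 0.0050), or -0.41 where no background was removed. The beta cell transcription factors Pdx1 and Mafa changed by 0.07 ± 0.13 and -0.46 ± 0.17 and did not pass, nor did the GLP-1 receptor Glp1r at -0.32 ± 0.23, the glucose-6-phosphatase G6pc2 at 0.23 ± 0.09 or the zinc transporter Slc30a8 at 0.09 ± 0.12. For the glucose transporter Slc2a2 the probes disagreed. Its brightest probe changed by -0.10, whereas dimmer probes changed by -0.80, past the threshold when each probe was counted on its own, and by -0.58, which did not pass. Granule proteins and prohormone processing genes had 0 of 22 called by limma (2 with an unadjusted p below 0.05, both lower) and a median of 0.01. Here and for later lists, the share of all genes with an unadjusted p below 0.05 was not counted. Chga and Scg2, granins that pack secretory granules, changed by 0.09 ± 0.08 and -0.05 ± 0.09. Insulin receptor signalling likewise had 0 of 16 (5 with an unadjusted p below 0.05, of which 1 was higher), and channel subunits 0 of 14 (6, of which 3 were higher).

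Among endocrine progenitor genes and genes kept low in beta cells, 1 of 13 detected members rose and 1 fell. Neurog3, the transcription factor that starts endocrine differentiation, read 7.39, 7.02 and 6.80 on chow and 6.08, 5.74 and 5.58 on western diet, a change of -1.27 ± 0.17 (adjusted p = 0.00073). Sox4, a transcription factor of endocrine development, went the other way, from 7.27, 7.23 and 7.09 to 8.04, 8.22 and 8.34, by 1.00 ± 0.14 (adjusted p = 0.0013). The diets did not overlap for either gene. Aldh1a3, a retinaldehyde dehydrogenase raised in failing beta cells, lies just outside the detection rule, with 2 of 3 chow arrays detected and 0 of 3 on western diet, at 5.73 ± 0.31 and 5.05 ± 0.28 (SD, n = 3). Just inside it lies Fgf21, detected on 3 chow arrays and 2 on western diet. Regulators of alpha, delta, PP and epsilon cells had 3 of 10 higher and 1 lower, and among the 8 detected on all 6 arrays 1 was higher and 1 lower, with a median of -0.02. Irx2, a homeobox gene of alpha cells, fell from 7.69 ± 0.05 to 6.84 ± 0.04, by 0.85 on the log2 scale (adjusted p = 8.6e-05), while its second probe changed by -0.37 and did not pass. Those that rose were Rgs2, described with the signalling genes, the somatostatin receptor Sstr3, at least 1.46-fold higher, and the glutamate receptor subunit Gria3, by 0.64 ± 0.17. "At least" marks a gene undetected in 1 group, for which the dim group is set to the lowest signal of detected probes wherever its own lies under that. The call of Gria3 was lost on leaving out any 1 of 5 arrays (adjusted p of 0.074 to 0.15) and that of Sstr3 on leaving out any 1 of 3 (0.059 to 0.086), and a second probe of Gria3 changed by -0.49.

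Immediate early genes, which neurons and endocrine cells switch on within minutes of calcium or cAMP signals, rose in part in WT islets on western diet. Of 17 detected members 7 rose, 0 fell and 10 were not called. Their median was 0.52, against 0.017 over all genes, and 6 of the 7 were detected on all arrays. This list, like the others, was chosen with earlier results of these data known, so its median and counts are not independent evidence. Fos, a subunit of the transcription factor AP-1, read 8.19, 8.45 and 8.15 on chow and 9.57, 9.66 and 9.70 on western diet. The lowest western diet array lay above the highest chow array by more than the range of either group, and the change was 1.38 ± 0.12 (adjusted p = 2.2e-05). Egr1, a zinc finger transcription factor, rose from 10.36 ± 0.13 to 11.31 ± 0.10, by 0.95 ± 0.10 (adjusted p = 0.00017). Junb, a partner of Fos in AP-1, rose by 0.76 ± 0.12, and Dusp1, a phosphatase that switches off MAP kinases, rose from 9.26 ± 0.04 to 9.94 ± 0.05, by 0.69 ± 0.10 (SD, n = 3; SE; adjusted p = 0.0013). Npas4, a calcium-induced transcription factor, was detected on 0 of 3 chow arrays and 3 of 3 western diet arrays and was at least 1.75-fold higher (adjusted p = 0.0021). Jun and Klf6, which the naming rule leaves out and which are named to complete the count, rose by 0.66 ± 0.11 and 0.64 ± 0.16. The call of Jun was lost without WT western diet replicate 1 (change 0.56) and that of Klf6 on leaving out any 1 of 4 arrays, among them WT chow replicate 3 (smallest change 0.40, adjusted p of 0.032 to 0.12). Without background correction, 4 members stayed past the threshold.

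Some regulators of cyclic nucleotide and G protein signalling rose too. Rgs2, which shuts off Gq signalling from receptors, showed the largest rise of the 8483 genes, from 5.22, 5.66 and 5.20 to 7.51, 7.62 and 7.93, by 2.33 ± 0.14 (adjusted p = 1.5e-06). All western diet arrays lay above all chow arrays, where 2 of 3 arrays detected it, and a second probe rose by 2.13. Rgs16, of the same family, rose from 8.40 ± 0.08 to 9.04 ± 0.16, by 0.64 ± 0.13 (adjusted p = 0.013), a call lost without WT western diet replicate 1 (adjusted p = 0.054). These were 2 of 11 family members detected, and 0 fell. Pde5a, which breaks down cGMP, rose from 6.66, 6.71 and 6.29 to 8.14, 8.25 and 7.64, by 1.45 ± 0.16 (adjusted p = 0.00019), but its second, dimmer probe changed by 0.21 and did not pass. Gadd45b, a stress-induced regulator of DNA demethylation and MAP kinases, rose from 6.28 ± 0.17 to 7.39 ± 0.25, by 1.11 ± 0.14 (adjusted p = 0.00073). Trib1, a pseudokinase that marks proteins for degradation and was chosen after its values were seen, rose by 1.14 ± 0.17 (adjusted p = 0.0023) on its brightest probe, while its second probe changed by 0.22.

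The cAMP response element binds CREB, a transcription factor activated by cAMP and calcium signals. The promoters of the immediate early genes and of Rgs2 were therefore read for it. Those of the other rising signalling genes are not reported here. The 4 promoters shown all hold a site. Sequences are the 250 bases before the start of transcription, 5′ to 3′ on the gene's strand, from RefSeq on GRCm38.p6. Capitals mark the core TGACG on either strand, or for Dusp1 the full element TGACGTCA. The windows are chr1:144004150-144004399 (minus strand) for Rgs2, chr12:85473640-85473889 (plus) for Fos, chr19:4989972-4990221 (minus) for Npas4 and chr17:26508473-26508722 (minus) for Dusp1.
Rgs2: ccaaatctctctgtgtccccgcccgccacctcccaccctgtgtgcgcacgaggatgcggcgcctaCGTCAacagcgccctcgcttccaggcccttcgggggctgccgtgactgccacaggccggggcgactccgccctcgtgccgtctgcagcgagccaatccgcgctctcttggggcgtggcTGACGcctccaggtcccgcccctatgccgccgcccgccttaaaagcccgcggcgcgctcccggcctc
Fos: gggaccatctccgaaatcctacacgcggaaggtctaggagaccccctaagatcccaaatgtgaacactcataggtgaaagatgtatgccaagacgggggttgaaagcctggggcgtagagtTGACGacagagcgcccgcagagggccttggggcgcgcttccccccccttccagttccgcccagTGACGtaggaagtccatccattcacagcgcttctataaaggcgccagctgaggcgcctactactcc
Npas4: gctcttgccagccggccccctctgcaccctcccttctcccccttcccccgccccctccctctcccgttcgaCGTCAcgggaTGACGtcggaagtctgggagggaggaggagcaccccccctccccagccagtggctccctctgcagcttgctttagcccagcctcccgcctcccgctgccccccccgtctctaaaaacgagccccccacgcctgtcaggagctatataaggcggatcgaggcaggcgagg
Dusp1: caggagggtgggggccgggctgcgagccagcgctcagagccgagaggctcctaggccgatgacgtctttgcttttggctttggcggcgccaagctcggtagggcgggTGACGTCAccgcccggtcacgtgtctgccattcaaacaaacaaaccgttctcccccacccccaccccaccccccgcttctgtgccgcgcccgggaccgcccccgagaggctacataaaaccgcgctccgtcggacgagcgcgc
The first marked site starts 185 bases before the start of transcription in Rgs2, 129 bases before it in Fos, 179 in Npas4 and 143 in Dusp1. Promoters were at hand for 14 of the 17 immediate early genes, and the core was found in 8 of the 14. Of the 6 that rose, 4 hold the core (Fos, Junb, Dusp1 and Npas4), and Jun and Klf6 do not. It was found in 32.01% of the promoters of all genes measured in WT islets and in 19.79% of all promoters in the table, so it is common. The full element was found in 1 of the 14, Dusp1, and in 3.34% of the promoters of measured genes. A match describes the letters and does not show that a factor binds there.

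Some inflammatory genes rose, and no member of the NF-kB or interferon lists was called lower. In limma, at an unadjusted p below 0.05, the NF-kB list had 6 members higher and 2 lower. The interferon list had 12 higher and 0 lower by that measure. The share of all genes at that measure was not counted, so these counts are not read as a shift of either list. Of NF-kB feedback genes, cytokines and chemokines, 13 of 37 on the array were detected with 5 rises, 0 falls and 8 not called, at a median of 0.33. Of the 5, 2 were detected on all arrays, and the median over the 9 members so detected was 0.14. Nfkbiz, an NF-kB cofactor that directs secondary response genes, read 8.14, 8.27 and 8.33 on chow and 9.51, 9.43 and 9.56 on western diet, a rise by 1.25 ± 0.09 (adjusted p = 4.7e-06) with no overlap. Relb, an NF-kB subunit of the noncanonical pathway, was at least 1.84-fold higher (adjusted p = 0.0025). Ccl5, a chemokine that attracts T cells and monocytes, rose from 5.49, 5.44 and 4.85 to 6.45, 6.48 and 6.24, by 1.13 ± 0.16 (adjusted p = 0.0014), and Cxcl9, an interferon-induced T cell chemokine, was at least 1.46-fold higher. Nfkbia, the inhibitor that NF-kB induces against itself, stands outside the naming rule and rose by 0.63 ± 0.13, a call lost on leaving out WT chow replicate 3 or WT western diet replicate 1 or 3 (adjusted p of 0.049 to 0.062). Without background correction 1 of these members passed, Nfkbiz.

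Interferon response genes had 3 of 25 detected members higher and 0 lower, with a median of 0.16. Oas2 and Irf7 entered through the western diet group alone, and of the 20 detected on all 6 arrays 1 rose. Oas2, an antiviral RNA sensor, was undetected on chow at 4.77, 4.93 and 5.36 and read 6.39, 6.36 and 6.31 on western diet, at least 2.02-fold higher (adjusted p = 0.00051). Irf7, the transcription factor of the type I interferon loop, was at least 1.22-fold higher, and Gbp3, an interferon-induced GTPase, rose by 0.67 ± 0.12, or by 0.54 without WT chow replicate 1, under the minimum fold. MHC class I and class II genes had 0 of 15 called by limma, but 7 had an unadjusted p below 0.05, all higher, and 13 of 15 lay above 0, with a median of 0.26. B2m, the light chain of class I, changed by 0.50 ± 0.10 (adjusted p = 0.012), under the minimum fold. Of 16 detected macrophage and dendritic cell markers, Csf1r, the macrophage growth factor receptor, rose by 0.73 ± 0.18 and C1qa, a complement component, fell by 0.61 on the log2 scale, while 13 of the 16 lay above 0, with a median of 0.22. The call of Csf1r was lost on leaving out any 1 of 5 arrays (adjusted p of 0.057 to 0.13). That of C1qa was lost without WT chow replicate 3 or WT western diet replicate 3, where it fell under the minimum fold (smallest change -0.58). The summed signal of the macrophage markers was 3027 to 3151 on chow and 3417 to 3657 on western diet. Of B and T cell markers 4 of 20 were detected, and Mzb1, of plasma and B cells, and Coro1a, an actin regulator of leukocytes, passed. Mzb1 was at least 1.35-fold higher and Coro1a rose by 0.65 ± 0.09 on its brightest probe, while its other probes changed by 0.12 and 0.16 and did not pass. The call of Coro1a was lost without WT chow replicate 1 (change 0.56) and that of Mzb1 on leaving out any 1 of 3 arrays (smallest change 0.53). The part of immune cells in the inflammatory genes was not tested.

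Some genes of the endoplasmic reticulum (ER) that handle unfolded proteins fell on western diet. Of 32 detected chaperone and unfolded protein response genes, 5 fell, 0 rose and 27 were not called, 24 lay below 0 and the median was -0.19. Sdf2l1, a cofactor of the ER chaperone BiP, read 10.90, 10.67 and 10.82 on chow and 9.86, 9.58 and 9.68 on western diet, with no overlap and a change of -1.09 ± 0.13 (adjusted p = 0.00045). Derl3, of the channel that carries misfolded proteins out of the ER, went from 6.82, 6.73 and 6.78 to 5.77, 5.38 and 5.70, by -1.16 ± 0.12 (adjusted p = 0.00016). Edem1, which picks misfolded glycoproteins for degradation, was detected on all chow arrays and on 0 of 3 western diet arrays, at least 1.63-fold lower (adjusted p = 0.00082). Trib3, a pseudokinase induced in ER stress, fell by 0.74 on the log2 scale (adjusted p = 0.0022). Without background correction Edem1 and Trib3 changed by -0.44 and -0.56, under the minimum fold. Creld2, an ER stress-induced isomerase outside the naming rule, fell from 10.76 ± 0.06 to 10.12 ± 0.05, by 0.64 on the log2 scale (adjusted p = 0.0056). Fkbp11, an ER prolyl isomerase on no list and chosen after its values were seen, fell from 11.47 ± 0.15 to 10.74 ± 0.20, by 0.73 on the log2 scale (adjusted p = 0.0072). Hspa5, which encodes BiP, read 5.62, 6.13 and 6.88 on chow and 5.33, 6.30 and 6.79 on western diet, a change of -0.07 ± 0.43. The spread within each diet was far wider than the change. It ran upward from replicate 1 to 3 on both diets, and the main fit does not use the replicate number. A small change of the gene could therefore not be resolved in this fit. Ddit3, the stress factor CHOP, changed by -0.25 ± 0.10 and did not pass.

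Targets of ATF4, the transcription factor of amino acid and ER stress, had 3 of 20 lower and 0 higher, with a median of -0.23. Besides Trib3 these were Nupr1, a stress-induced chromatin protein, from 12.69 ± 0.12 to 11.99 ± 0.05, by -0.70 ± 0.09 (adjusted p = 0.0010), and Fgf21, a metabolic hormone, by -0.97 ± 0.20 (adjusted p = 0.016). The call of Fgf21 was lost without WT chow replicate 2 (adjusted p = 0.055). Trib3 and Ddit3 stand on both lists.

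Among heat shock chaperones of the cytosol a few rose. Of 15 detected members 3 rose, 0 fell and 8 had an unadjusted p below 0.05, all higher, with a median of 0.30, or 0.27 with undetected members at their bound. Hspa1a and Hspa4l entered through the western diet group alone, and of the 13 members detected on all 6 arrays 1 rose, with a median of 0.25. Hspa1a, the inducible HSP70, was undetected on chow at 5.19, 5.01 and 4.96 and read 5.64, 6.29 and 5.73 on western diet, at least 1.46-fold higher (adjusted p = 0.0075). Hspa4l, an HSP110 relative, was at least 1.21-fold higher, and Hsp90aa1, the inducible HSP90, rose by 0.69 ± 0.16 (adjusted p = 0.030). The call of Hsp90aa1 was lost on leaving out WT chow replicate 1 or WT western diet replicate 2 or 3 (adjusted p of 0.076 to 0.12), and without background correction 0 of the 3 passed the minimum fold, with changes of 0.36, 0.26 and 0.58 in the order named.

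The ER stress response element, bound by ATF6 and XBP1 together with NF-Y, was looked for in the same promoter windows, as CCAAT followed after any 9 bases by CCACG, on either strand. It was found in 9 of the 30 promoters at hand for the ER list, against 0.16% of the promoters of genes measured in WT islets. Of the 5 that fell, Creld2 and Derl3 hold it, and Sdf2l1, Edem1 and Trib3 do not within this window. The 2 promoters are shown with the element in capitals, at chr10:75893148-75893397 (plus strand) for Derl3 and chr15:88819396-88819645 (plus) for Creld2.
Derl3: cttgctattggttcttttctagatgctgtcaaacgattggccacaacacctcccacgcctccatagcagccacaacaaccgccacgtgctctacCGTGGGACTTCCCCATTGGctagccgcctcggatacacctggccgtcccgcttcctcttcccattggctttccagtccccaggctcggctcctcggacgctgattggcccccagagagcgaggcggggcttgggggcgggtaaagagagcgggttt
Creld2: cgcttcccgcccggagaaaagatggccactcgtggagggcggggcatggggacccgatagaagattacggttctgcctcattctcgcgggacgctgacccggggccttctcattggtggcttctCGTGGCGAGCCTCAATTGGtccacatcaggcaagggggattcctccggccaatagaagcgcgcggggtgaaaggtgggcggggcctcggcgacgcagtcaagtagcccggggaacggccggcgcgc
In Derl3 the element spans the bases from 156 to 138 before the start of transcription and in Creld2 from 126 to 108.

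Some genes of DNA replication and mitosis fell on western diet. Of 42 on the array 17 were detected, 7 fell, 0 rose and 10 were not called. Their median was -0.56, or -0.46 with undetected members at their bound. Of the 17, 12 were detected on all arrays, of which 4 fell, with a median of -0.35. Cenpa, the histone that marks centromeres, read 7.26, 7.14 and 7.35 on chow and 6.07, 5.91 and 6.33 on western diet, with no overlap and a change of -1.15 ± 0.11 (adjusted p = 8.6e-05). Pbk, a mitotic kinase, was at least 2.96-fold lower (adjusted p = 8.1e-05), from 6.73, 6.89 and 7.02 to a level not detected on any western diet array. The mitotic kinases Aurka and Plk1 were at least 1.26-fold and 1.28-fold lower. The call of Plk1 was lost without WT chow replicate 1 or 3 or WT western diet replicate 1 (adjusted p of 0.051 to 0.062). The list's other falls stand outside the naming rule. They were Mcm5, of the replicative helicase, by 0.90, Cdca3, a mitotic entry factor, by 0.89, and Prc1, which bundles the spindle midzone, by 0.67 on the log2 scale. Uhrf1, which carries DNA methylation through replication and stands on no list, was at least 1.81-fold lower (adjusted p = 8.6e-05), from 6.05, 6.22 and 6.24 to a level not detected on any western diet array. Anln, an actin binding protein of cytokinesis chosen after its values were seen, was at least 1.12-fold lower. Cyclins, CDKs and their inhibitors had 0 of 17 called by limma (6 with an unadjusted p below 0.05, of which 5 were lower). For the cyclin Ccnd2 the probes disagreed. Its 2 brighter probes changed by 0.24 and 0.23. A dimmer probe rose by 1.13, past the threshold when each probe was counted on its own. Without background correction 2 of the 7 stayed past the minimum fold.

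Promoters of mitotic genes typically carry CCAAT boxes for NF-Y. The box, searched on either strand, was found in 13 of 15 promoters at hand for the list and in 6 of 6 of those that fell, against 40.71% of the promoters of genes measured in WT islets and 37.49% of all promoters. TTTGAA, the core of the cell cycle homology region, was found in 4 of 15, against 12.1%. The windows of a dim and a brighter gene are shown with CCAAT in capitals, at chr7:122159185-122159434 (plus strand) for Plk1 and chr5:30666636-30666885 (plus) for Cenpa.
Plk1: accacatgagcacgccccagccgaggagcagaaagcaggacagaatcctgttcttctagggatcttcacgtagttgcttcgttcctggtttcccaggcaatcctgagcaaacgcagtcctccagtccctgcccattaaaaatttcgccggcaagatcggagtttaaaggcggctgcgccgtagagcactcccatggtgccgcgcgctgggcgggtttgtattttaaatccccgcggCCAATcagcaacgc
Cenpa: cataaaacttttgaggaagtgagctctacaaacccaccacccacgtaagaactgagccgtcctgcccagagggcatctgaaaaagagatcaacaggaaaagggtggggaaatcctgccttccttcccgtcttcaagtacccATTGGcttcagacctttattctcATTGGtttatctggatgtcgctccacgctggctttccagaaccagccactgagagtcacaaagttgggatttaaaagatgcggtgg

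**Figure D3:**
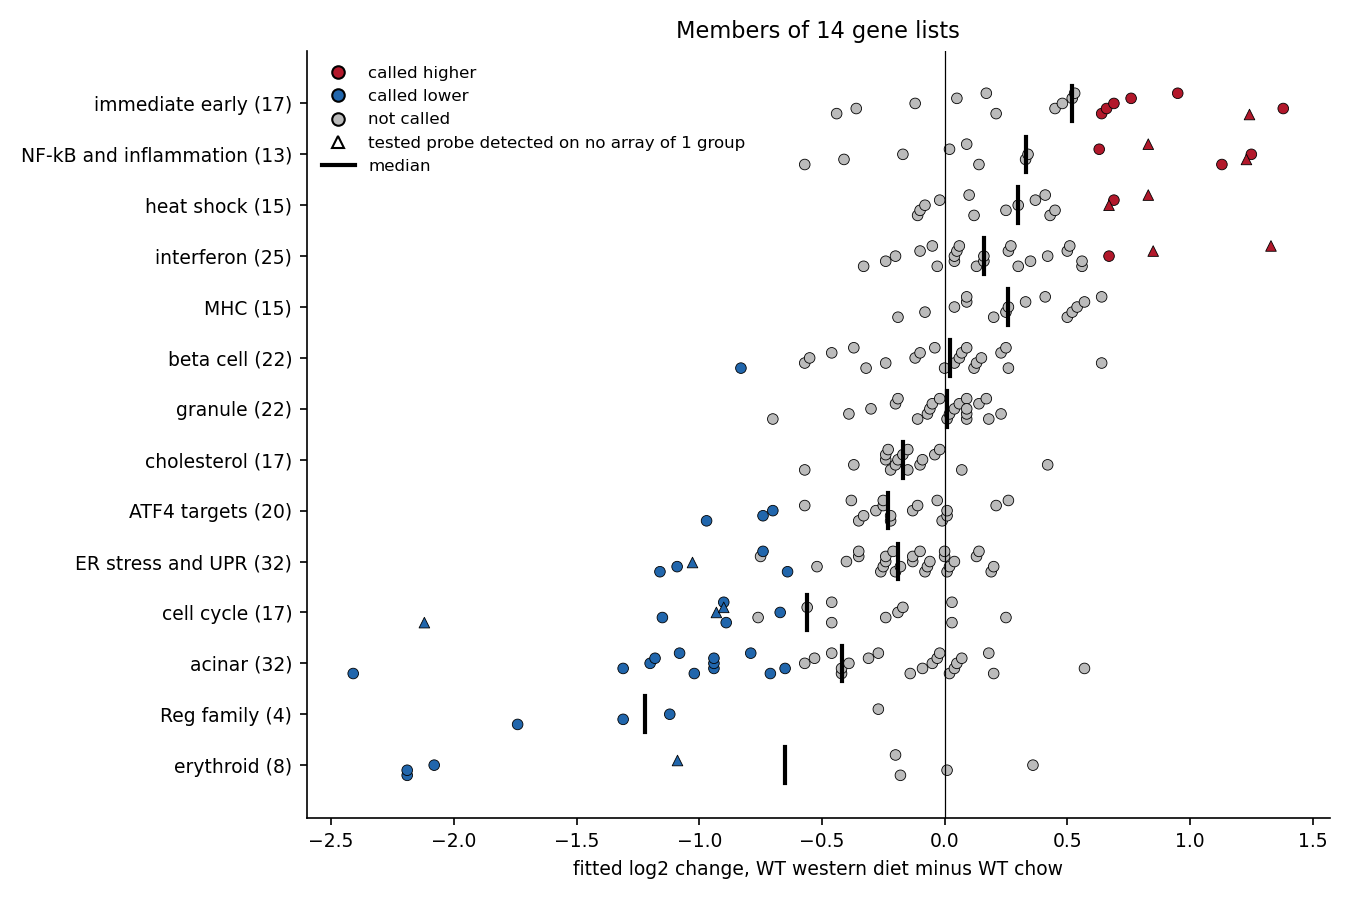
Fitted log2 change with western diet in WT islets (x axis) of each detected member of 14 gene lists, with the number of members in brackets, the list's median as a bar and called members in red (higher) or blue (lower). Triangles are members whose tested probe was detected on no array of 1 diet, for which the fitted change is not a bound. Immediate early genes sit mostly above 0, and cell cycle, ER stress and acinar genes mostly below.

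The clock gene Arntl, which encodes BMAL1, the positive arm of the circadian clock, was lower, and Cry2, of its negative arm, higher. Arntl read 6.20, 6.49 and 6.45 on chow and 5.48, 5.40 and 5.52 on western diet, a change of -0.92 ± 0.10 (adjusted p = 0.00014), and -0.45 without background correction. Cry2 went from 7.92, 7.60 and 7.62 to 8.28, 8.69 and 8.75, by 0.86 ± 0.16 (adjusted p = 0.0088). These were 2 of 12 detected clock genes, and the remaining 10 did not pass. The labels do not state the hour at which islets were taken, and diet and hour cannot be told apart.

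Lists of metabolism mostly held no called gene. Cholesterol synthesis had 0 of 17 called by limma (4 with an unadjusted p below 0.05, of which 3 were lower), and 15 of 17 lay below 0, with a median of -0.17. Its member Sqle changed by -0.15 on its brightest probe. A dimmer Sqle probe changed by -0.71, past the threshold when each probe was counted on its own. Fatty acid synthesis had 0 of 20 (7 with an unadjusted p below 0.05) and Scd1, the stearoyl-CoA desaturase, changed by -0.43 ± 0.15. Fatty acid oxidation had 1 of 18, Fgf21, already given. Glycolysis and hypoxia genes had 0 of 16 (4), and cytosolic ribosomal proteins 0 of 38 (5, all higher). Of 50 subunits of oxidative phosphorylation 2 rose. Atp5b, the catalytic subunit of ATP synthase, went from 12.81, 12.84 and 12.97 to 13.44, 13.51 and 13.54, by 0.62 ± 0.08 (adjusted p = 0.0010), and Uqcrq, of complex III, rose by 0.75 ± 0.16, a call lost on leaving out any 1 of 4 arrays (adjusted p of 0.054 to 0.077). Among 22 antioxidant genes 1 fell, Gpx3, a secreted glutathione peroxidase, by 0.61 on the log2 scale, or by 0.56 without WT chow replicate 1, under the minimum fold. Txnip, the inhibitor of thioredoxin that glucose induces, read 11.93, 11.92 and 12.01 on chow and 12.40, 12.46 and 12.42 on western diet. Its change of 0.48 ± 0.08 (adjusted p = 0.0030) was under the minimum fold, with no overlap between the diets. Of nuclear receptor partners of SHP and bile acid genes 6 of 24 were detected and 0 passed in limma (1 with an unadjusted p below 0.05, higher).

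Some transcripts of red blood cells fell. The beta globin Hbb-bs read 11.96, 11.90 and 11.94 on chow and 10.03, 9.88 and 9.64 on western diet, a change of -2.08 ± 0.10 (adjusted p = 2.3e-07), and its 6 probes changed by -1.87 to -2.20. Hbb-bt and the alpha globin Hba-a1 changed by -2.19 ± 0.15 and -2.19 ± 0.16, and Alas2, the heme synthesis enzyme of red cells, was at least 1.32-fold lower. These were 4 of 8 detected erythroid markers, and the globin genes share sequence, so their probes are not separate measurements. The other markers were not called, at 0.36 for Mkrn1, 0.01 for Slc25a37, -0.18 for Fech and -0.2 for Rsad2. The summed signal of the 8 was 10959 to 12012 on chow and 2832 to 3524 on western diet, and the bright globins make up most of it.

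Exocrine transcripts fell unevenly. Of 32 detected acinar markers 12 fell, 0 rose and 20 were not called. Their median was -0.42, and the summed signal was 312547 to 329024 on chow and 239319 to 262303 on western diet. Prss3, a trypsinogen, read 10.86, 10.69 and 10.66 on chow and 8.24, 8.41 and 8.31 on western diet, a change of -2.41 ± 0.16 (adjusted p = 4.4e-06). The trypsinogens Try10 and Try5 changed by -1.2 ± 0.10 and -1.18 ± 0.11, and Klk1b27, a tissue kallikrein, changed by -2.35 ± 0.14. Their paralogs are near identical, so probes can mix signals. Not all enzymes moved, as the changes of the lipase Cel, the carboxypeptidase Cpa1 and the amylase Amy2a5 were -0.05, -0.02 and 0.05, a set named after their values were seen. Some of these signals lie near the top of the scale. Of 4 detected Reg genes, secreted lectins of acinar tissue, Reg1, Reg2 and Reg3d fell. Reg1 read 13.65, 13.79 and 13.54 on chow and 12.38, 12.43 and 12.25 on western diet, a change of -1.31 ± 0.10 (adjusted p = 1.1e-05), and Reg2 and Reg3d changed by -1.74 ± 0.13 and -1.12 ± 0.11. Duct markers had 1 of 9 higher, Tspan8, a tetraspanin, by 0.85 ± 0.10 (adjusted p = 0.00024). Endothelial markers had 0 of 17 called by limma and fibroblast and matrix genes 0 of 15, with 4 and 2 with an unadjusted p below 0.05. Their summed signals were 14164 to 14485 and 10618 to 10882 on chow and 14482 to 15152 and 10652 to 11182 on western diet. Leaving the acinar, Reg, erythroid and lymphocyte markers out of the fit, a setting chosen after seeing the data, left 220 genes called, 108 higher.

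**Figure D4:**
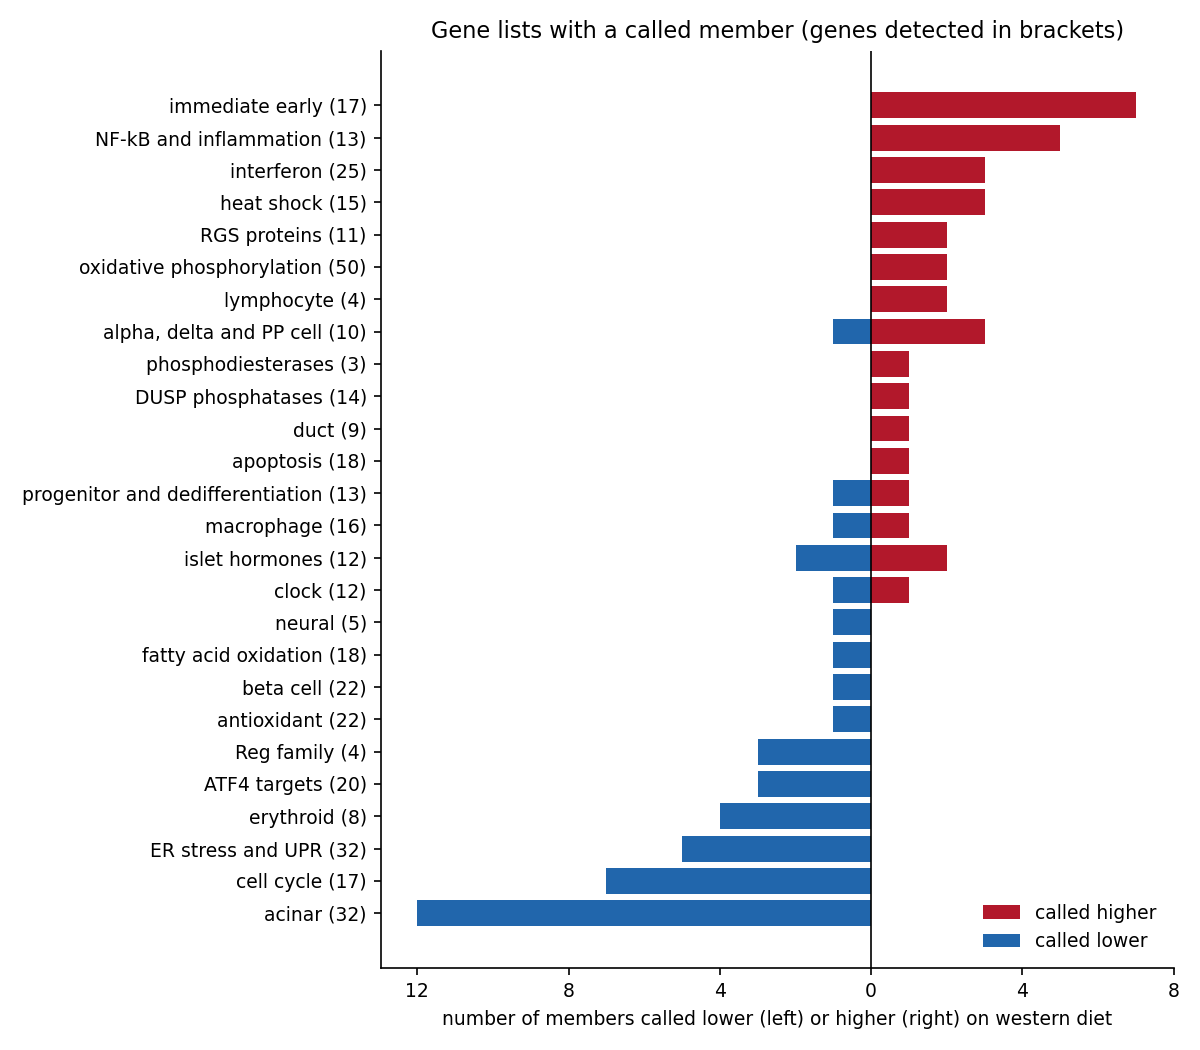
Number of members called lower (blue, to the left) or higher (red, to the right) on western diet in WT islets for each gene list with a called member, with the number of detected members in brackets. Acinar markers have the most falls (12) and immediate early genes the most rises (7).

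Large changes outside these lists were found as well. Cdk5rap1, which modifies mitochondrial tRNA, read 7.13, 7.0 and 7.44 on chow and 8.28, 8.30 and 8.62 on western diet, a rise by 1.21 ± 0.12 (adjusted p = 0.00011), and a second probe rose by 1.15, while another, dimmer one changed by 0.71 and did not pass. Slc15a2, a peptide transporter, was at least 1.85-fold higher. Sult1d1, a sulfotransferase of catecholamines, rose by 1.37 ± 0.15 on its brightest probe, while a dimmer probe changed by -0.46. Nktr, a cyclophilin-related protein, and Iqgap2, a scaffold of the cytoskeleton, rose by 1.35 ± 0.25 and 1.25 ± 0.26, but their arrays spread widely (5.94 to 6.98 and 5.56 to 6.57 on chow), and the call of Iqgap2 was lost without WT western diet replicate 1 (adjusted p = 0.054). Slpi, a protease inhibitor of mucosa and macrophages, was at least 1.07-fold higher, and the glutamine transporter Slc38a5 fell by 0.62 on the log2 scale, or by 0.58 without WT chow replicate 3, under the minimum fold. A set of bright probes, chosen after their values were seen, was called lower where the other probes of the same genes were not called. For Rab5a, a GTPase of early endosomes, the probe tested went from 11.57 ± 0.50 on chow to 10.35 ± 0.31 on western diet (SD, n = 3), a change of -1.22 ± 0.21, against -0.22 and -0.35 for its other probes. Likewise Zfp207 changed by -1.17 ± 0.20 against -0.17, Spata6 by -1.14 ± 0.18 against 0.15, and Hmgxb3 by -1.10 ± 0.21 against 0.46 and 0.05, and for all 4 the chow replicate 3 was the lowest of its group. These values are of probes and may not speak for the genes.

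The same diet in SHPKO islets, measured on arrays shared with no WT group, called 201 of the 8483 genes (2.37%), 111 higher and 90 lower. These 8483 genes were picked by detection in WT, which leaves out genes detected only in SHPKO. Over all 8869 genes tested, 292 were called in SHPKO and 241 in WT. Of the 233 genes called in WT, 47 were called the same way in SHPKO and 2 the opposite way. The 47 are 20.2% of the WT calls and 23.4% of the SHPKO calls among the 8483 genes. The changes had the same sign in SHPKO for 170 of the 233, and the median SHPKO change was 0.27 for genes that rose in WT and -0.20 for those that fell. Genes that changed in both genotypes include Npy, at -1.94 ± 0.21 in SHPKO, the beta globins Hbb-bs and Hbb-bt and the alpha globin Hba-a1, Reg2, Klk1b27, Pdyn at 0.79 ± 0.08, Cxcl9, Relb, Oas2 and Hspa1a, and a difference between genotypes was not called for these.

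A test of the difference itself called 127 of the 8483 genes (1.5%), and 68 of the 233 genes called in WT were among them, 30 that rose and 38 that fell. The difference contains the WT change by which the 233 were picked, so nothing is read from that share. Of the 68, 44 were detected on all 12 arrays, and 16 were detected on no array of at least 1 group, for which the fitted difference is no measured size. Gal had the most significant difference of those described. In SHPKO islets it read 4.98, 4.80 and 4.68 on chow and 4.64, 4.87 and 4.83 on western diet, where 0 of 3 arrays on either diet detected it. A fall could therefore not have been seen in SHPKO, and the fitted difference between genotypes of 2.93 (adjusted p = 2.3e-07) is set against background signal. Fos, Egr1, Junb, Npas4 and Dusp1 changed by -0.18, -0.24, -0.27, 0.07 and 0.07 in SHPKO, none past the threshold, and the difference was called for all 5, but not for Jun and Klf6. On SHPKO chow arrays Fos already read 9.57, 9.58 and 9.89, close to WT on western diet. Egr1, Junb, Npas4 and Dusp1 averaged 11.64, 8.83, 6.13 and 9.81 on SHPKO chow. On WT western diet they averaged 11.31, 8.67, 6.15 and 9.94. WT chow had the lowest mean of the 4 groups for all 5 genes, and what set it apart was not tested. Rgs2 rose in SHPKO too, by 0.97 ± 0.14, less than in WT (difference -1.36, adjusted p = 0.0018). Cenpa, Mcm5, Cdca3 and Prc1 differed between genotypes as well. The difference was also called for Pbk and Aurka, but no WT western diet array detected either and no SHPKO chow array detected Aurka. Uhrf1, undetected on SHPKO chow, was at least 1.40-fold higher on western diet in SHPKO, against its fall in WT to an undetected level (adjusted p of the difference = 3.1e-05). Derl3 changed by -0.01 ± 0.12 in SHPKO (difference 1.15, adjusted p = 0.0027), whereas the difference was not called for Sdf2l1, Edem1, Trib3 or Creld2. Arntl changed by 0.34 ± 0.10 in SHPKO (difference 1.26, adjusted p = 0.00017). Ppy, Ghrl, Neurog3 and Sox4 changed by 0.12, -0.55, -0.25 and -0.13 in SHPKO, none past the threshold, with a called difference for each. Coro1a and Mzb1 rose by 2.29 and 2.39 in SHPKO, more than in WT, where Mzb1 was undetected on chow. Ccl5 and Slpi, undetected on SHPKO chow arrays, were at least 4.06-fold and 4.17-fold higher on western diet, and the difference between genotypes was called for both.

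**Figure D5:**
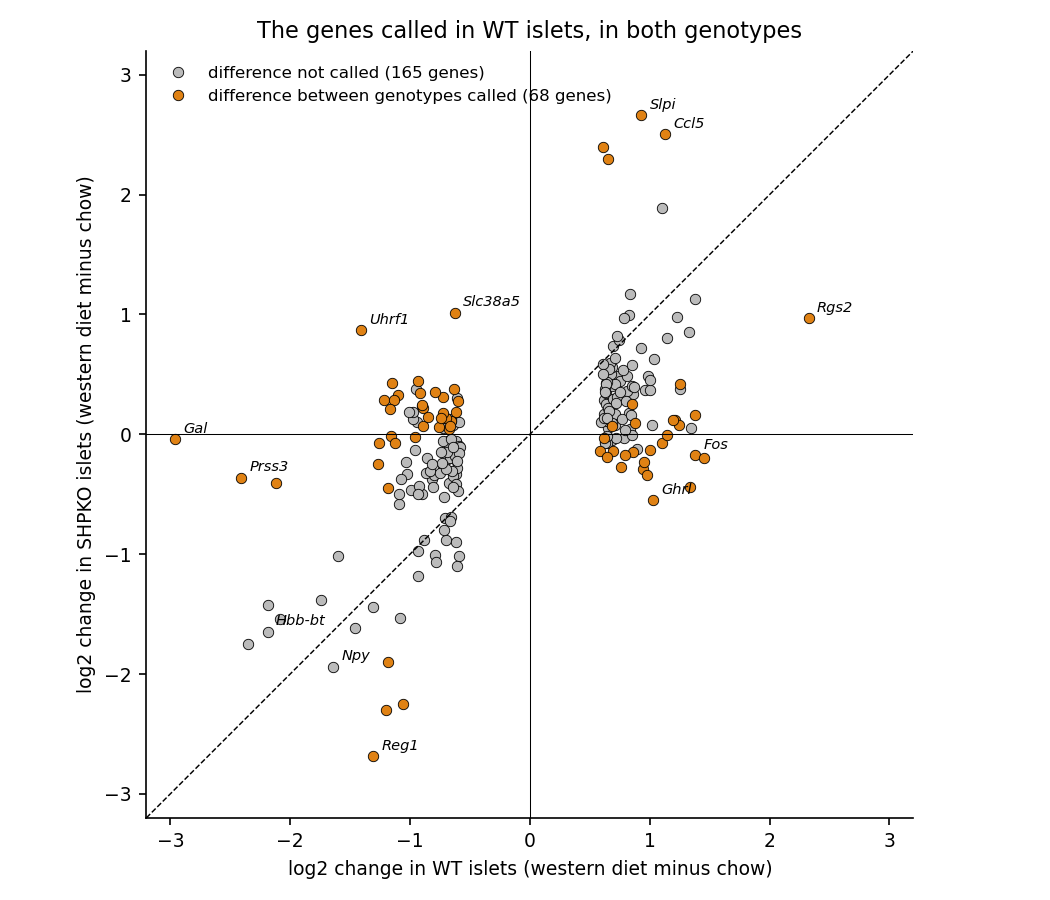
Log2 change with western diet in SHPKO islets (y axis) against that in WT islets (x axis) for the 233 genes called in WT, with the 68 genes whose difference between genotypes was called in orange and the dashed line where both changes are equal. Gal, undetected in SHPKO, and Fos lie near 0 in SHPKO, while Npy and Hbb-bt lie near the dashed line.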

How the data were processed

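The deposited raw table holds a linear intensity per probe and array, which the authors neither background-subtracted nor normalized per the file headers, and a deposited detection p-value against that array's negative controls. Per the submitters' processing notes the software was BeadStudio (version not stated). Intensities were background-corrected and quantile-normalized with neqc (offset 16) in limma 3.58.1 under R 4.3.3 and taken to log2. Probes detected (p below 0.01) on all 3 arrays of at least 1 of the 4 groups were kept (14756 probes), and the brightest stood for each gene. Group means over 12 arrays were fitted with moderated variances, and p-values were adjusted over all 8869 genes (Benjamini-Hochberg). The fit was tested on simulated data. SDs and SEs are on the log2 scale. No count underlies an array signal, so the number of arrays limits the precision.

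Members and gene lists were chosen with earlier results of these data known. Named genes are the 12 largest rises and falls with non-overlapping arrays, up to 4 called members per direction of each list, the 2 brightest members of lists with fewer than 2 calls, a preset set of islet genes, and up to 8 calls with the most significant difference between genotypes. Of the preset genes, Nr0b2 was below the filter, and some are not reported here. Alternatives covered background correction, scaling, the authors' processed intensities, the filter, the choice of probe, the arrays fitted, the minimum fold, the replicate number as a block and each array left out.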

Additional observations from a re-analysis of the deposited data

Results flagged for a closer look

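The diet effect in SHPKO minus that in WT (log2) passed an interaction test in limma (Benjamini-Hochberg adjusted p below 0.05 and at least 1.5-fold) for the following genes, each of which stood out because the genotypes differed in their response. Each effect is western diet minus chow over 3 arrays a group. Values are fitted, and where a gene was detected on no array of a group they are set against background and give no measured size. This holds for Gal, Anln and Reg3d (both SHPKO groups, where a fall could not have been seen), for Vip (SHPKO western diet), for Ccl5, Slpi, Aurka and Uhrf1 (SHPKO chow), and for Slpi, Slc15a2, Npas4 and Mzb1 (WT chow) and Pbk, Aurka, Uhrf1 and Anln (WT western diet).

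Among hormones, neuropeptides and regulators of endocrine cells, the difference was 2.93 for Gal, -1.08 for Ppy, -1.58 for Ghrl, -2.52 for Vip, 1.02 for Neurog3, -1.14 for Sox4 and 1.00 for Irx2. Vip was at least 3.00-fold lower on western diet in SHPKO and changed by 0.07 in WT. Among immediate early and signalling genes it was -1.55 for Fos, -1.18 for Egr1, -1.04 for Junb, -1.17 for Npas4, -0.62 for Dusp1, -1.36 for Rgs2, -0.84 for Rgs16, -1.65 for Pde5a, -1.18 for Gadd45b and -1.15 for Trib1. These genes were called higher in WT, and the difference subtracts that change, so nothing is read from their shared sign. The difference was not called for Jun (-0.12) and Klf6 (-0.20). Among inflammatory and immune genes it was -0.83 for Nfkbiz, 1.38 for Ccl5, 1.64 for Coro1a, 1.78 for Mzb1 and 1.74 for Slpi.

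Among cell cycle genes and Uhrf1 it was 1.58 for Cenpa, 1.72 for Pbk, 1.37 for Aurka, 1.14 for Mcm5, 1.11 for Cdca3, 0.74 for Prc1, 0.93 for Anln and 2.28 for Uhrf1. These genes were called lower in WT. The difference subtracts that change, so nothing is read from their shared sign. For stress, clock and metabolic genes it was 1.15 for Derl3, 0.84 for Nupr1, 1.26 for Arntl, -1.01 for Cry2, -0.86 for Txnip, 0.80 for Gpx3, -0.66 for Atp5b and 1.60 for Scd1. Scd1, a fatty acid desaturase, changed by 1.17 in SHPKO and by -0.43 in WT. For exocrine and duct genes it was 2.05 for Prss3, -1.10 for Try10, -0.71 for Try5, -1.38 for Reg1, 1.05 for Reg3d and -0.60 for Tspan8. For genes on no list it was 1.64 for Slc38a5, -1.78 for Slc15a2, -1.22 for Sult1d1 and -1.09 for Cdk5rap1. For the bright probes called lower in WT where other probes of the same gene were not called, it was 1.51 for Rab5a, 1.43 for Hmgxb3, 1.42 for Spata6 and 1.38 for Zfp207.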

How the results depend on the processing

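All 233 genes called in WT kept their direction in the 16 settings tried, 64 passed in every setting and 120 in every one apart from that without background correction. Of all genes tested, 241 were called in WT, 110 higher and 131 lower. Without background correction 86 passed, 34 higher and 52 lower, and 127 in place of 292 passed in SHPKO, while 227 of the 233 still had an adjusted p below 0.05, so the minimum fold was what most missed. Counting every kept probe gave 480 calls, 240 higher and 240 lower. At 2-fold 59 passed, 25 higher and 34 lower. With genes detected on all WT arrays, 72 passed as higher. With scaling to a common median, the median change over all genes tested was 0.0787. Leaving out 1 array gave 209 to 256 calls in WT (92 to 127 higher, 114 to 129 lower), 240 to 306 in SHPKO and 149 to 190 for the difference between genotypes (184 in the main setting). Same-numbered WT arrays deviated together with correlations of 0.376, 0.02 and 0.539. Across numbers, chow replicate 1 with western diet replicate 3 gave -0.404, and chow replicate 3 with western diet replicate 1 gave -0.495. Replicates 1 and 3 thus varied with their own number, which replicate 2 did not, so a pairing by number is not settled. With the replicate number as a block, 269 genes passed in WT, 323 in SHPKO and 238 for the difference. Chow replicate 2 correlated best with western diet replicate 1, not with its own number. Dim genes rest on signals near background and give lower bounds, and 3 arrays a group, possibly of 1 pool, limit all of these counts.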
